A study of Mus musculus with 9 samples.

Results

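The proteasome subunits and activators were the probe sets whose only gene symbol in the platform annotation starts with Psma, Psmb, Psmc, Psmd, Psme, Psmf or Psmg. That rule took 58 of the 12488 probe sets on the array, for 46 of the 8252 genes that have a probe set of their own, and 51 of the 58 had enough signal to be tested. Ventricular RNA of 9 females, all 3 months old, was hybridised to 1 array each, and all 9 overexpressed the receptor for insulin-like growth factor 1 from a transgene (IGF1R). A second transgene added constitutively active PI3K p110 in 3 of them (IGF1R-caPI3K) and dominant negative PI3K p110 in another 3 (IGF1R-dnPI3K), while the last 3 had the receptor transgene alone. The labels also mention hearts with a PI3K transgene only and hearts with none; these were not analysed here, and each value is relative to another transgenic heart. Which promoter drives the transgenes is not stated in the sources used here. Because whole ventricles were used, fewer cells of a type and less RNA per cell cannot be told apart.

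The proteasome is the protease that degrades most proteins marked with ubiquitin. Its core particle is a stack of rings: alpha subunits form the gates, and beta subunits line the chamber and include the catalytic sites. The regulatory particle caps the core, binds ubiquitin, and unfolds substrates with a ring of ATPases. Activators of another kind open the gate without ATP, and interferon-inducible beta subunits can replace the constitutive catalytic ones to form the immunoproteasome, which is best known for making peptides for class I antigen presentation. In heart muscle the system removes damaged and surplus contractile proteins, and PI3K signalling downstream of IGF1R is known for favouring growth of the myocyte.

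Most proteasome members were not called in any comparison of these hearts. IGF1R-dnPI3K hearts had higher signal than IGF1R hearts for 5 genes from different parts of the particle: the activator Psme1, the regulatory subunits Psmd4 and Psmd3, the immunoproteasome subunit Psmb10 and the core subunit Psmb2. Psme1 changed most, by 1.99-fold. These are 5 of the 51 members tested (9.8%), against 5.7% of all probe sets tested. No member was called lower in that comparison, against 7.8% of all. None was called in either direction between IGF1R-caPI3K and IGF1R hearts, against 0.152% of all higher and 0.0633% lower. With only those 2 groups in the fit, Psmd4, Psmd3, Psmb10 and Psma4 passed there as higher and the dimmest Psmc3 probe set as lower. The shares just given do not belong to that fit, whose share of all probe sets is not given here. Nothing about the members as a set is read from it. Psme1 alone was called between IGF1R-caPI3K and IGF1R-dnPI3K hearts, lower in the first, against 0.506% of all.

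The promoters of Psme1, Psmd4 and Psmb10 are shown because the genes moved in the same comparison and the windows can be set against the same letters in all promoters. They run from 250 bases before to 50 after the annotated start, in RefSeq's GRCm38.p6 annotation, written in the direction of transcription. They lie at chr14:55578244-55578543 on the plus strand (Psme1), chr3:95042565-95042864 on the minus strand (Psmd4) and chr8:105938343-105938642 on the minus strand (Psmb10). The promoters of Psmb2 and Psmd3 were not used here. Capitals mark every match, on either strand, to the 5 motifs searched.
Psme1: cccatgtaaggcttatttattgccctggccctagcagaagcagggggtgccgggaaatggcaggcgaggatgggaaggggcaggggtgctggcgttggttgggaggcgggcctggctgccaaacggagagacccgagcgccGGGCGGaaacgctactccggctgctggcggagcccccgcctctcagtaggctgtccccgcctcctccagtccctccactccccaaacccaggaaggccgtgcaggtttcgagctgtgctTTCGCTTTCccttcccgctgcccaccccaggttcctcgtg
Psmd4: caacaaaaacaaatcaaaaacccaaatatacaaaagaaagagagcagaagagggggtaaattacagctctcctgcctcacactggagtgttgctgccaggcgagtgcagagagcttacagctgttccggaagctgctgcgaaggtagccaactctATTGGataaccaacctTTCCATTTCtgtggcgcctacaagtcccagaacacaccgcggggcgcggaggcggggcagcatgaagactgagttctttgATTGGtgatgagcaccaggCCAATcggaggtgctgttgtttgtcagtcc
Psmb10: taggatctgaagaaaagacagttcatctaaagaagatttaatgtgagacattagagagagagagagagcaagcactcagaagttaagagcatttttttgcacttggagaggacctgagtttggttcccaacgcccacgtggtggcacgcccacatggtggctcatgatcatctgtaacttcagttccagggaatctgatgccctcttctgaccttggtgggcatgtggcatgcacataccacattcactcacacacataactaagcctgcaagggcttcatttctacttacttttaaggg

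The motifs were TGACNNNGC (the core of the antioxidant response element), GAAANNGAA (the core of the interferon-stimulated response element), TTCNNNGAA (the core of the gamma-activated site), CCAAT and GGGCGG (the GC box). The Psme1 window held a GC box at position -109 and an interferon-stimulated core on the opposite strand from position 11. The Psmd4 window held CCAAT boxes on the opposite strand at positions -95 and 2 and on the printed strand at 21. It also held an interferon-stimulated core on the opposite strand from position -79. The Psmb10 window held none of the 5, which says only that these letters are not in it. No printed matches overlapped. The table matched 39 of the 46 member genes, with 42 promoters in all. The interferon-stimulated core stood in 7 of the 42 (16.7%), among them those of Psme1 and Psmd4, and in 8.56% of all 32851 promoters of the same length. The GC box stood in 23 (54.8%), against 35.7% of all promoters. The antioxidant core stood in 6 (14.3% against 12.4%), the gamma-activated core in 3 (7.14% against 8.3%) and CCAAT in 15 (35.7% against 37.4%). A match of letters is a description and not a binding site.

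The values are the deposited intensities on a linear scale, and log2 differences come from 1 limma fit over all 9 arrays and all 7898 probe sets tested, with Benjamini-Hochberg adjustment over all of them and a threshold of 0.05. The arrays themselves differed between the groups. The 3' to 5' signal ratio of the CreX spike was 1.74 to 1.89 on IGF1R-caPI3K arrays, 1.79 to 1.83 on IGF1R-dnPI3K arrays and 1.05 to 1.26 on IGF1R arrays, and its part in the results was not tested. The array of IGF1R-dnPI3K replicate 3 stood apart, with a mean correlation to the others of 0.927 against 0.947 to 0.956 for the rest. For pyruvate carboxylase the 3' probe set read 3.25 times the 5' one on that array and 1.40 to 2.11 times on the other 8, and its part in the results was not tested. It was the highest or lowest array for 27 of the 51 members tested (52.9%), against 47.8% of all probe sets tested. The median SD of log2 signal over members was 0.11 in IGF1R-caPI3K, 0.20 in IGF1R-dnPI3K and 0.10 in IGF1R hearts. The probe set of Igf1r read 933 to 1282 in IGF1R-caPI3K, 1660 to 1977 in IGF1R-dnPI3K and 854 to 986 in IGF1R hearts, and the labels do not say whether it detects the transgene.

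Cell type markers also moved with the groups. Their calls between IGF1R-dnPI3K and IGF1R hearts stand beside 5.7% of all probe sets called higher and 7.8% lower. Summed over 9 cardiomyocyte markers, the signal was 152380 to 159120 in IGF1R-caPI3K, 165400 to 202660 in IGF1R-dnPI3K and 142960 to 154350 in IGF1R hearts. Of these 9, 3 were called higher and 1 lower in IGF1R-dnPI3K than in IGF1R hearts. The 8 fibroblast markers summed to 32144 to 35760, 21876 to 25719 and 29878 to 32545 in the same order of groups, with 0 called higher and 4 lower in IGF1R-dnPI3K than in IGF1R hearts. The 9 macrophage and myeloid markers summed to 6954 to 7405, 3943 to 5894 and 6403 to 7219.8, with 0 of 7 tested called higher and 3 lower. The 10 lymphocyte markers summed to 578.5 to 982, 832 to 1157 and 693 to 875, with 0 of 3 tested called higher and 0 lower. Cd2 and Cd8a were at or below the floor on all 9 arrays. The 9 skeletal muscle markers summed to 39225 to 40512 in IGF1R-caPI3K, 14181 to 22367 in IGF1R-dnPI3K and 30505 to 32722 in IGF1R hearts, without overlap between the groups, and of 7 tested 1 was called higher and 4 lower in IGF1R-dnPI3K than in IGF1R hearts. The 7 endothelial markers summed to 5252 to 5750.1, 5573 to 6403 and 6626 to 8014.5 in the same order of groups, with 1 called higher and 2 lower. The 3 red blood cell markers summed to 26143 to 30101, 28163 to 44471 and 26083 to 27201, and the 6 smooth muscle and pericyte markers to 2340.4 to 2586, 2832 to 4150.1 and 2514 to 3095, with none of either list called between IGF1R-dnPI3K and IGF1R hearts and 1 and 2 higher at an unadjusted p under 0.05. That p was reached in either direction by 32.2% of all probe sets tested. Outside the lymphocyte list, the smooth muscle marker Cnn1 was at or below the floor on all 9 arrays. The skeletal muscle markers Myh2 and Tnnt3 were on 8 and 4 arrays, and the myeloid markers Itgam and Adgre1 on 5 and 2. Between IGF1R-caPI3K and IGF1R hearts the markers Ryr2 (cardiomyocyte), Ckm (skeletal muscle) and Cd79a (lymphocyte) were called lower, against 0.0633% of all probe sets, and none higher. Between IGF1R-caPI3K and IGF1R-dnPI3K hearts 3 fibroblast and 4 skeletal muscle markers were called higher, against 0.734% of all. Cd79a was called lower there, against 0.506% of all. The part of cell composition in the results was not tested.

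**Figure D1:**
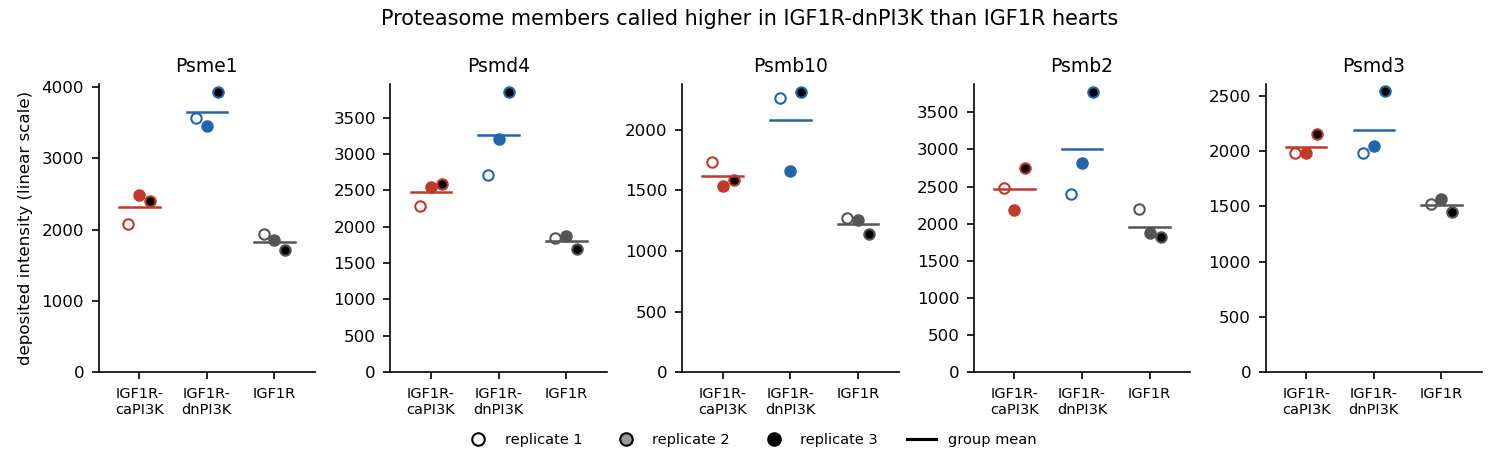
Deposited intensity (linear scale) of the 5 genes called higher in IGF1R-dnPI3K than in IGF1R hearts, 1 point per mouse and a line at the group mean of 3. Every IGF1R-dnPI3K point lies above every IGF1R point in all 5 panels, and the IGF1R-caPI3K points lie between them for Psme1 and Psmd4.

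The activators held the largest called difference and, beside it, members with differences of the opposite sign. Psme1 encodes the alpha subunit of the ring-shaped activator that pairs with Psme2 and opens the core for peptides. Its signal was 2081, 2484 and 2394 in IGF1R-caPI3K hearts, 3561, 3454 and 3924 in IGF1R-dnPI3K hearts and 1932, 1846.5 and 1716 in IGF1R hearts. All IGF1R-dnPI3K mice were above all others, and all IGF1R-caPI3K mice were above all IGF1R mice. The log2 difference between IGF1R-dnPI3K and IGF1R hearts was 0.99 ± 0.11 (SE, n = 3 each; limma adjusted p = 0.00347). It kept the call without IGF1R-dnPI3K replicate 3 and under each other single array left out. Between IGF1R-caPI3K and IGF1R-dnPI3K hearts it was -0.65 ± 0.11 (limma adjusted p = 0.0204). That call was lost without any 1 of the IGF1R-caPI3K replicates (-0.58, adjusted p = 0.0947, without replicate 1; -0.71, 0.0745, without replicate 2; -0.68, 0.0767, without replicate 3), and without IGF1R-dnPI3K replicate 2 (-0.69, adjusted p = 0.0588). Between IGF1R-caPI3K and IGF1R hearts it was 0.34 ± 0.11 (limma adjusted p = 0.147), short of the threshold although the groups did not overlap. A dim Psme1 probe set was not tested, with signals of 39.2 to 85.0 over the 9 arrays.

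The partner subunit has no probe set of its own here. A probe set annotated to both Psme2 and its relative Psme2b, left out by the rule, read 897, 788 and 808 in IGF1R-caPI3K hearts, 941, 764 and 511 in IGF1R-dnPI3K hearts and 729, 777 and 754 in IGF1R hearts. The IGF1R-dnPI3K values lay on both sides of the IGF1R values, unlike those of Psme1.

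Psme4 encodes the large single-chain nuclear activator, known from testis and DNA repair. Its signal was 2701, 2369 and 2818 in IGF1R-caPI3K hearts, 1239, 2838 and 1848 in IGF1R-dnPI3K hearts and 3563, 2984 and 2719 in IGF1R hearts. Replicates 1 and 3 of IGF1R-dnPI3K were below every other mouse, while replicate 2 lay within the IGF1R range. The log2 difference between IGF1R-dnPI3K and IGF1R hearts was -0.72 ± 0.24 (limma adjusted p = 0.0703), and without IGF1R-dnPI3K replicate 2 it was -1.02 (adjusted p = 0.0195). Psme3, the nuclear homo-oligomeric activator, read 664, 618 and 642 in IGF1R-caPI3K hearts, 614, 564 and 583 in IGF1R-dnPI3K hearts and 968.5, 444 and 792 in IGF1R hearts. The IGF1R mice spread around both other groups, and the log2 difference between IGF1R-dnPI3K and IGF1R hearts was -0.25 ± 0.23 (limma adjusted p = 0.485).

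**Figure D2:**
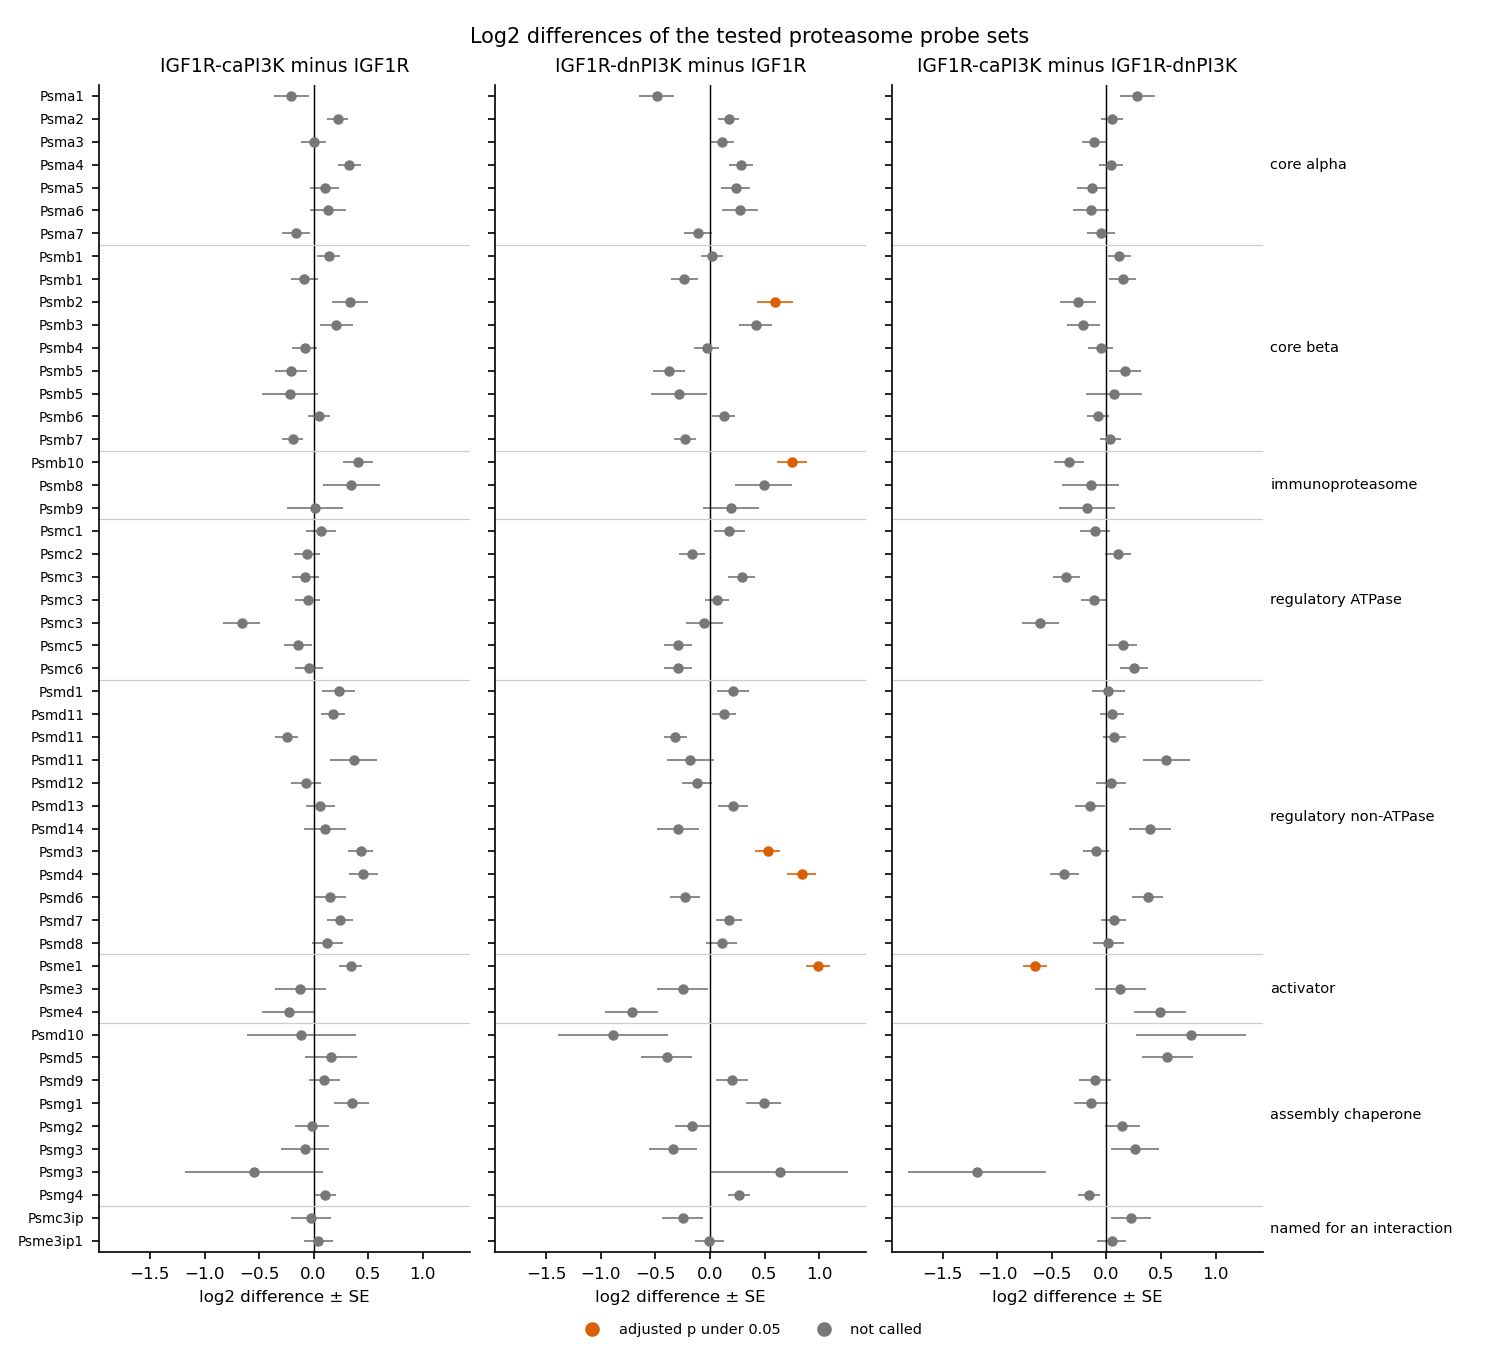
Log2 difference ± SE of the 51 tested probe sets, 1 row each, by subunit class, in the 3 comparisons; orange marks a limma adjusted p under 0.05. The 5 called probe sets of the middle panel come from 4 classes, Psme1 is called again in the right panel, and most other members lie near 0.

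The immunoproteasome subunits did not share a pattern over mice. Psmb10, the inducible counterpart of the trypsin-like subunit Psmb7, read 1732, 1535 and 1588 in IGF1R-caPI3K hearts, 2259, 1659 and 2315 in IGF1R-dnPI3K hearts and 1272, 1258 and 1138 in IGF1R hearts. Both groups with a PI3K transgene lay above all IGF1R mice. The log2 difference was 0.75 ± 0.14 between IGF1R-dnPI3K and IGF1R hearts (limma adjusted p = 0.0145). Without IGF1R replicate 3 it was 0.70 (adjusted p = 0.0623). Between IGF1R-caPI3K and IGF1R hearts it was 0.40 ± 0.14 (limma adjusted p = 0.166).

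Psmb8, the counterpart of the chymotrypsin-like subunit Psmb5, read 602.5, 619 and 551 in IGF1R-caPI3K hearts, 1045.0, 529 and 501 in IGF1R-dnPI3K hearts and 455, 584 and 376 in IGF1R hearts. Psmb9, the counterpart of the caspase-like subunit Psmb6, read 252, 330.1 and 303 in IGF1R-caPI3K hearts, 534, 243 and 283 in IGF1R-dnPI3K hearts and 272, 303 and 298 in IGF1R hearts. For both genes IGF1R-dnPI3K replicate 1 was the highest of the 9 mice, and the other 2 mice of its group lay within the IGF1R range, or below it for replicate 2 in Psmb9. Neither was called: the log2 differences between IGF1R-dnPI3K and IGF1R hearts were 0.49 ± 0.26 for Psmb8 (limma adjusted p = 0.222) and 0.19 ± 0.26 for Psmb9 (0.640). Without IGF1R-dnPI3K replicate 1 they were 0.15 and -0.15.

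That mouse was also the highest for several class I presentation genes, which supply and load the peptides. Tap1, B2m and H2-K1 were chosen after their values were seen. The peptide transporter Tap1 read 480.2 in IGF1R-dnPI3K replicate 1, 284 and 198.5 in the other 2 mice of its group, and 251 to 289 in IGF1R hearts. B2m, the light chain of class I molecules, read 10184 in that replicate 1, 3433 and 1550.5 in the other 2, and 3694 to 5909 in IGF1R hearts. H2-K1, a class I heavy chain, read 6559 in it, 3180.2 and 3354 in the other 2, and 3383 to 4518 in IGF1R hearts. Replicate 1 was above the IGF1R range for Tap1, B2m and H2-K1, and at least 1 other mouse of its group was below that range. Some other genes of the list shared this order. Irf9 read 598, 317 and 214 in IGF1R-dnPI3K hearts, against 432.5 to 489 in IGF1R hearts. Canx read 875, 759 and 691, against 731.5 to 813. H2-D1, Gbp2, Irf1 and Tap2 were also highest in that replicate 1, with no mouse of its group below the IGF1R range. The probe set names of H2-K1 and H2-D1 mark possible shared targets with other transcripts. Tap2, the partner of Tap1, read 336, 275 and 297 in IGF1R-dnPI3K hearts, against 211, 233 and 165.5 in IGF1R hearts. All 3 mice lay above the IGF1R range for Tap2 (0.58 on the log2 scale, limma adjusted p = 0.0648), as they did for Irf1. Further genes of the list did not peak in that replicate 1, among them Tapbp, which was highest in an IGF1R-caPI3K mouse. Psme1 and Psmb10 did not peak in it either, since IGF1R-dnPI3K replicate 3 was the highest mouse for each. Between IGF1R-dnPI3K and IGF1R hearts, 5.7% of all probe sets tested were called higher and 7.8% lower. At an unadjusted p under 0.05 the share in either direction was 32.2%. Of 17 interferon and class I genes tested, 0 were called higher and 1 lower in IGF1R-dnPI3K than in IGF1R hearts. At that unadjusted p, 1 was higher and 1 lower. The lower one was Pdia3, a chaperone of class I assembly, at -1.49 ± 0.34 (limma adjusted p = 0.0219), a call lost without IGF1R replicate 1 (-1.63, 0.0515), 2 (-1.53, 0.0598) or 3 (-1.32, 0.0844). Their median log2 difference was 0.02, against -0.09 over all probe sets tested.

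**Figure D3:**
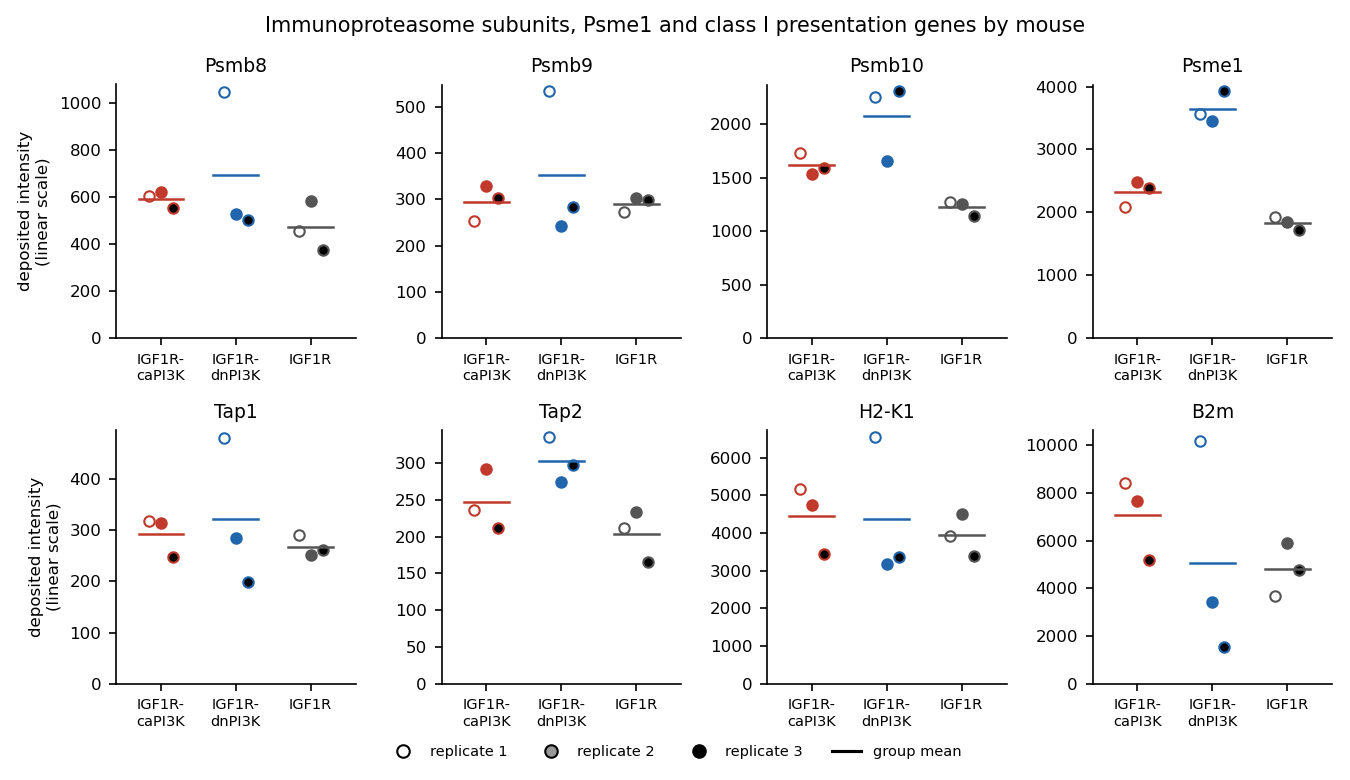
Deposited intensity (linear scale) of 3 immunoproteasome subunits, Psme1 and 4 class I presentation genes, 1 point per mouse and a line at the group mean. Open symbols are replicate 1: in IGF1R-dnPI3K hearts it lies far above its group for Psmb8, Psmb9, Tap1, H2-K1 and B2m, but not for Psmb10 or Psme1.

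In the regulatory particle, the subunits without ATPase activity held both called genes. Psmd4, a ubiquitin receptor, read 2284, 2546.5 and 2583 in IGF1R-caPI3K hearts, 2714, 3211.5 and 3848.5 in IGF1R-dnPI3K hearts and 1839, 1876.5 and 1688 in IGF1R hearts. The 3 groups did not overlap, with IGF1R-dnPI3K highest and IGF1R lowest. The log2 difference was 0.84 ± 0.13 between IGF1R-dnPI3K and IGF1R hearts (limma adjusted p = 0.00915), a call that held with each array left out in turn. Between IGF1R-caPI3K and IGF1R hearts it was 0.46 ± 0.13 (limma adjusted p = 0.122), with adjusted p = 0.0271 without IGF1R-dnPI3K replicate 3. Between IGF1R-caPI3K and IGF1R-dnPI3K hearts it was -0.39 ± 0.13 (limma adjusted p = 0.205), and -0.51 (0.0327) without IGF1R-dnPI3K replicate 1.

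Psmd3, a subunit of the lid, read 1982, 1979.5 and 2152.5 in IGF1R-caPI3K hearts, 1978, 2047 and 2546 in IGF1R-dnPI3K hearts and 1518, 1566 and 1449 in IGF1R hearts. Both groups with a PI3K transgene lay above all IGF1R mice and overlapped each other. The log2 difference was 0.53 ± 0.12 between IGF1R-dnPI3K and IGF1R hearts (limma adjusted p = 0.0206), and 0.43 ± 0.12 between IGF1R-caPI3K and IGF1R hearts (0.107). The first call was lost without IGF1R replicate 1, 2 or 3 (0.53, 0.55 and 0.50, with adjusted p of 0.0598, 0.0564 and 0.0774), and the second difference passed without IGF1R-dnPI3K replicate 3 (adjusted p = 0.0194).

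The other 10 tested probe sets of this class had log2 differences between IGF1R-dnPI3K and IGF1R hearts from -0.32 to 0.21, none of them called. Psmd14, the deubiquitinase of the lid, read 1024, 971 and 607 in IGF1R-dnPI3K hearts, against 1032, 1209.6 and 893 in IGF1R hearts, with replicate 3 alone below the IGF1R range. Psmd6, a lid subunit, was higher in every IGF1R-caPI3K than in every IGF1R-dnPI3K mouse, by 0.38 ± 0.14 on the log2 scale, and did not pass (limma adjusted p = 0.239). The median over the class was 0.17 between IGF1R-caPI3K and IGF1R hearts and 0.12 between IGF1R-dnPI3K and IGF1R hearts.

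None of the 7 tested probe sets of the ATPase ring, which unfolds substrates, was called in any comparison; at an unadjusted p under 0.05, 1 differed between IGF1R-caPI3K and IGF1R hearts, 3 between IGF1R-dnPI3K and IGF1R hearts and 2 between IGF1R-caPI3K and IGF1R-dnPI3K hearts. Over all probe sets tested the shares at that p were 18.4%, 32.2% and 15.4% in the same order of comparisons. Their median log2 difference was -0.06 between IGF1R-caPI3K and IGF1R hearts and -0.05 between IGF1R-dnPI3K and IGF1R hearts. Psmc3 was read by 3 probe sets that differed in sign between IGF1R-dnPI3K and IGF1R hearts (0.29, 0.06 and -0.05 from the brightest to the dimmest). In the other comparisons they shared a sign and differed in size. The dimmest read 250.3, 270.1 and 285 in IGF1R-caPI3K hearts, 317, 463 and 463 in IGF1R-dnPI3K hearts and 453, 423 and 394 in IGF1R hearts, with all IGF1R-caPI3K mice lowest. Its difference of -0.66 ± 0.17 between IGF1R-caPI3K and IGF1R hearts had the lowest p of all members there (limma adjusted p = 0.102), and passed without IGF1R-dnPI3K replicate 1 (0.0451) or 3 (0.039). The brightest Psmc3 probe set gave -0.08 ± 0.13 and the middle one -0.05 ± 0.11 in the same comparison. Between IGF1R-caPI3K and IGF1R-dnPI3K hearts the differences were -0.37, -0.12 and -0.61 from the brightest to the dimmest. None was called (limma adjusted p of 0.199, 0.644 and 0.129). Without IGF1R-dnPI3K replicate 1 the brightest (0.0445) and the dimmest (0.0124) passed there, and the middle one did not. The names of the brightest and the dimmest both mark probe sets that may share their target with other transcripts.

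The constitutive core held 1 called gene. Psmb2, a beta subunit without catalytic activity, read 2476, 2178.5 and 2750.5 in IGF1R-caPI3K hearts, 2405, 2821 and 3777 in IGF1R-dnPI3K hearts and 2197, 1868.5 and 1817 in IGF1R hearts. All IGF1R-dnPI3K mice were above all IGF1R mice, and replicate 3 was far above the other 2. The log2 difference was 0.59 ± 0.17 (limma adjusted p = 0.0407). It was 0.41 without IGF1R-dnPI3K replicate 3 (adjusted p = 0.0866), and leaving out any other single array except IGF1R-dnPI3K replicate 1 also lost the call, with adjusted p of 0.0559 to 0.128. Its neighbour in the ring, Psmb3, had 2072, 2194 and 2216 in IGF1R-caPI3K hearts, 2134, 2246 and 3278 in IGF1R-dnPI3K hearts and 1970.5, 1828 and 1821 in IGF1R hearts. The same IGF1R-dnPI3K replicate 3 stood out, and the log2 difference of 0.42 ± 0.15 between IGF1R-dnPI3K and IGF1R hearts was not called (limma adjusted p = 0.083), but passed without IGF1R-dnPI3K replicate 1 (0.54, adjusted p = 0.0293).

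The constitutive catalytic subunits that the inducible ones replace were not called. Psmb7 read 2154, 2195 and 2324 in IGF1R-caPI3K hearts, 2082.5, 2345 and 2094 in IGF1R-dnPI3K hearts and 2623, 2448 and 2559 in IGF1R hearts. Every mouse with a PI3K transgene was below every IGF1R mouse, the opposite order to its counterpart Psmb10, but the log2 difference of -0.23 ± 0.10 between IGF1R-dnPI3K and IGF1R hearts did not pass (limma adjusted p = 0.136). The brighter Psmb5 probe set gave -0.37 ± 0.15 (0.107) and Psmb6 gave 0.12 ± 0.10 (0.433) in the same comparison. Without IGF1R-dnPI3K replicate 2 that Psmb5 probe set was called lower (-0.51, limma adjusted p = 0.0481). The names of that probe set and of the Psmb7 one mark possible shared targets with other transcripts.

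The 7 alpha subunits, which form the gate, had log2 differences from -0.49 to 0.29 between IGF1R-dnPI3K and IGF1R hearts. Psma4 read 2872, 2622 and 2595 in IGF1R-caPI3K hearts, 2321, 2800.2 and 2757 in IGF1R-dnPI3K hearts and 2181, 2217 and 2046 in IGF1R hearts, with all IGF1R mice lowest. Its log2 differences were 0.33 ± 0.11 between IGF1R-caPI3K and IGF1R hearts (limma adjusted p = 0.155) and 0.29 ± 0.11 between IGF1R-dnPI3K and IGF1R hearts (0.0975). Without IGF1R-dnPI3K replicate 1 the second was 0.37 (adjusted p = 0.0278). Psma1 read 661, 669.7 and 623.5 in IGF1R-caPI3K hearts, 613, 605 and 412 in IGF1R-dnPI3K hearts and 699.6, 787 and 768 in IGF1R hearts. The 3 groups did not overlap, in the reverse order of Psmd4, and the difference of -0.49 ± 0.16 between IGF1R-dnPI3K and IGF1R hearts did not pass (limma adjusted p = 0.064), but passed without IGF1R-dnPI3K replicate 1 (-0.59).

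**Figure D4:**
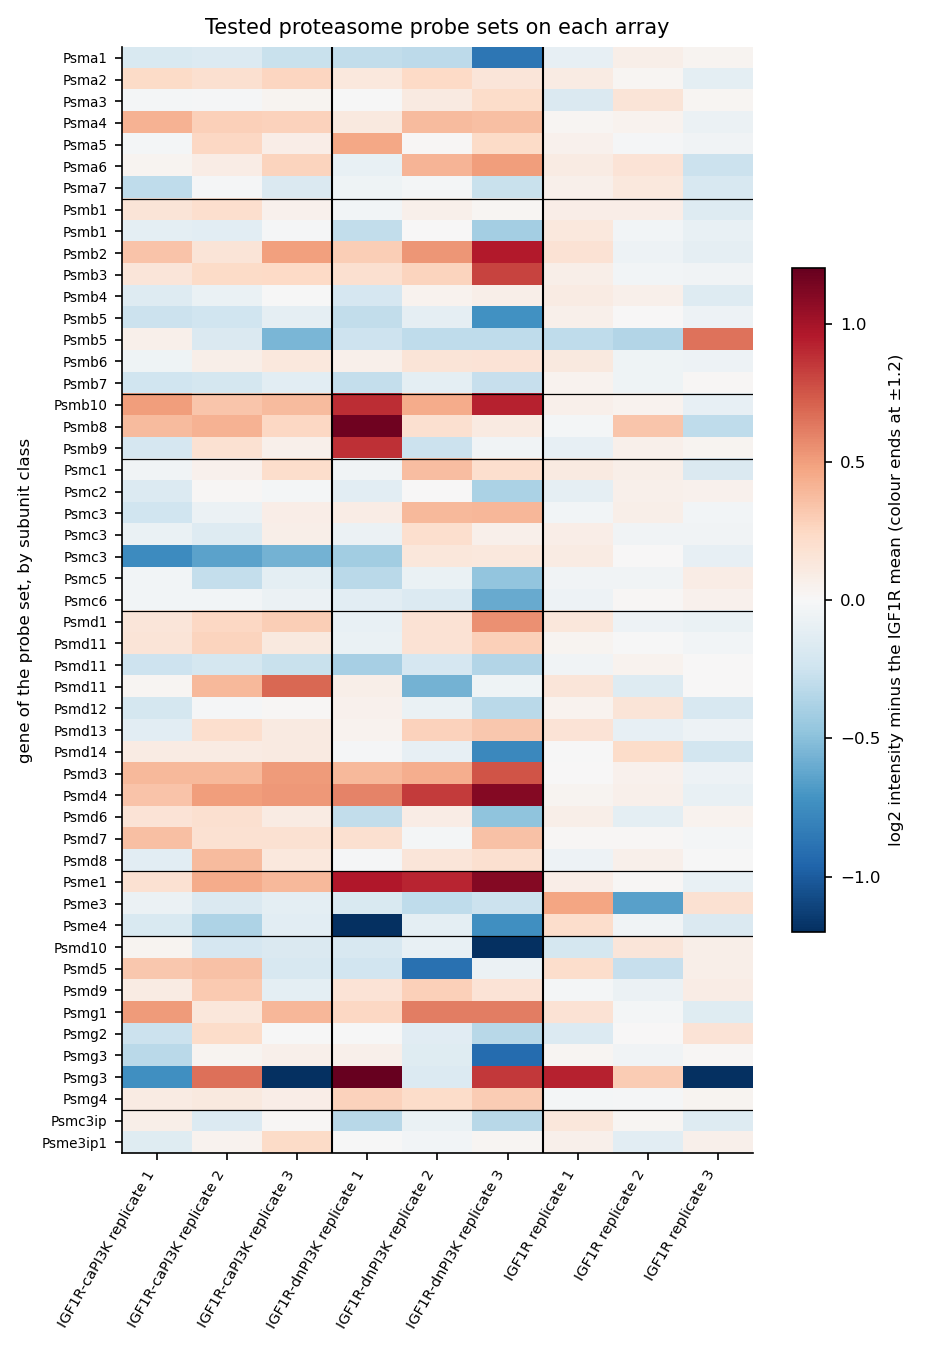
Log2 intensity of the 51 tested probe sets on each array, less the IGF1R mean of the probe set, by subunit class (rows) and array (columns); red is higher and blue lower. Psme1, Psmd4 and Psmb10 are red in all 3 IGF1R-dnPI3K columns, and the column of IGF1R-dnPI3K replicate 3 holds many of the strongest colours of both signs.

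Among the assembly chaperones, which build the rings and leave before the particle is complete, 8 probe sets were tested and none was called. At an unadjusted p under 0.05, 2 differed between IGF1R-dnPI3K and IGF1R hearts, against 32.2% of all probe sets tested. Psmg1, a chaperone of the alpha ring, read 563, 435 and 519 in IGF1R-caPI3K hearts, 468, 604 and 603 in IGF1R-dnPI3K hearts and 444, 388 and 357 in IGF1R hearts. All IGF1R-dnPI3K mice were above all IGF1R mice, and the log2 difference was 0.49 ± 0.16 (limma adjusted p = 0.063), which passed on quantile normalization (0.62, adjusted p = 0.0403) and without IGF1R-dnPI3K replicate 1 (0.61, 0.0219). Psmg4 read 823, 837 and 815 in IGF1R-caPI3K, 929, 895 and 947 in IGF1R-dnPI3K and 758, 764 and 787 in IGF1R hearts, without overlap. Its log2 difference between IGF1R-dnPI3K and IGF1R hearts was 0.26 ± 0.10 (limma adjusted p = 0.102). It passed on scaling to a common median (0.40, limma adjusted p = 0.0374) and with no filter (0.26, 0.0224). Psmd10, a chaperone of the regulatory particle also known as the oncoprotein gankyrin, read 147.5, 158 and 27.3 in IGF1R-dnPI3K hearts, against 145, 186 and 177 in IGF1R hearts. Its log2 difference of -0.89 ± 0.50 (limma adjusted p = 0.25) came with 1 mouse, replicate 3, that read below the floor of 32.4. Psmc3ip and Psme3ip1, which carry proteasome names only for a binding partner, were not called, with log2 differences of -0.25 and 0.00 between IGF1R-dnPI3K and IGF1R hearts.

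Counted over all members, 5 of 51 (9.8%) were called higher in IGF1R-dnPI3K than in IGF1R hearts, against 5.7% of all probe sets tested. Lower calls were 0 of 51, against 7.8% of all, and at an unadjusted p under 0.05 there were 10 members higher and 7 lower. In either direction 33.3% of members and 32.2% of all probe sets had an unadjusted p under 0.05, which is near the background. Groups did not overlap for 12 members higher (23.5%, against 13.6% of all) and 6 lower (11.8%, against 20.8%). The members' median log2 difference was 0.06, against -0.09 over all tested, and 27 of the 51 were positive.

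Between IGF1R-caPI3K and IGF1R hearts, 0 of 51 members were called higher, against 0.152% of all probe sets, and 0 lower, against 0.0633%, by limma. At an unadjusted p under 0.05, 8 members (15.7%) differed, 6 higher and 2 lower, against 18.4% of all. Groups did not overlap for 12 members higher (23.5%, against 14% of all) and 5 lower (9.8%, against 18.8%). The median was 0.05, against -0.04 over all tested.

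Between IGF1R-caPI3K and IGF1R-dnPI3K hearts, 0 members were called higher, against 0.734% of all, and 1 lower (1.96%), against 0.506%. At an unadjusted p under 0.05, 3 members were higher and 5 lower, 15.7% in all, against 15.4% of all probe sets. Groups did not overlap for 5 members higher and 5 lower (9.8% each), against 10.9% and 8.66% of all. The median was 0.03, against 0.05 over all tested. The comparisons with IGF1R hearts share those 3 arrays.

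Several genes were read by more than 1 tested probe set, and these differed in sign for 4 of the 5 such genes between IGF1R-dnPI3K and IGF1R hearts (Psmb1, Psmc3, Psmd11 and Psmg3). Psmd11, a lid subunit, gave 0.13 ± 0.11, -0.32 ± 0.10 and -0.18 ± 0.21 from its brightest to its dimmest probe set. The middle one read 910.3, 937.5 and 899.5 in IGF1R-caPI3K hearts, 825, 943 and 849 in IGF1R-dnPI3K hearts and 1054, 1115 and 1087 in IGF1R hearts. All mice with a PI3K transgene were below all IGF1R mice on that probe set and not on the other 2, so no direction is given for Psmd11. That middle probe set did not pass between IGF1R-dnPI3K and IGF1R hearts (limma adjusted p = 0.0675), but was called lower with no filter (-0.32, 0.0375). The called genes each had 1 tested probe set, so no second reading of their change was at hand.

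**Figure D5:**
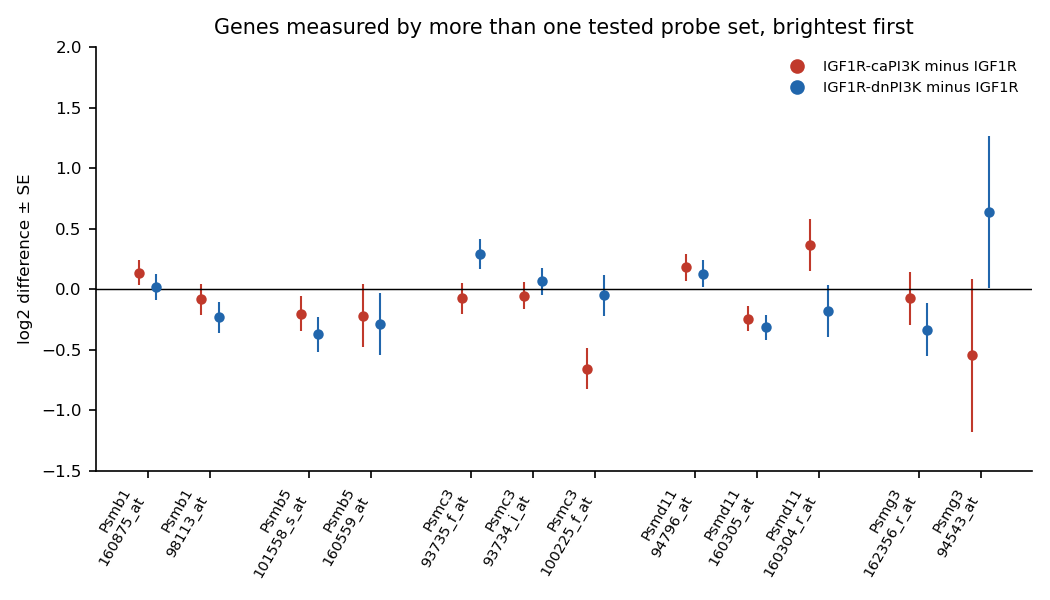
Log2 difference ± SE between IGF1R-caPI3K and IGF1R hearts (red) and between IGF1R-dnPI3K and IGF1R hearts (blue) for the 5 genes with more than 1 tested probe set, named by probe set, brightest first. The probe sets of Psmb1, Psmc3, Psmd11 and Psmg3 fall on both sides of 0 for the blue points.

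Of 9 proteasome genes outside the symbol rule that were tested, 1 was called higher and 1 lower in IGF1R-dnPI3K than in IGF1R hearts, with a median log2 difference of -0.06. Over all probe sets tested, 5.7% were called higher and 7.8% lower, and the median was -0.09. Sem1, the smallest lid subunit, read 5298, 5350.1 and 5181 in IGF1R-caPI3K hearts, 6159, 5288 and 7419 in IGF1R-dnPI3K hearts and 4457, 4482 and 4003 in IGF1R hearts. All mice with a PI3K transgene were above all IGF1R mice, and the difference between IGF1R-dnPI3K and IGF1R hearts was 0.53 ± 0.12 (limma adjusted p = 0.024). Without IGF1R replicate 1, 2 or 3 it was 0.56, 0.56 or 0.48 and lost the call (adjusted p of 0.0599, 0.0598 and 0.0908). The Sem1 probe set was not in the fit without possible shared targets. Usp14, a deubiquitinase that docks on the regulatory particle and trims ubiquitin chains, read 740.0, 784 and 760.2 in IGF1R-caPI3K hearts, 813, 737 and 379.5 in IGF1R-dnPI3K hearts and 1268.5, 1336 and 1394 in IGF1R hearts. All mice with a PI3K transgene were below all IGF1R mice, by -1.13 ± 0.23 on the log2 scale for IGF1R-dnPI3K (limma adjusted p = 0.0181) and -0.81 for IGF1R-caPI3K (0.122). The difference for IGF1R-caPI3K passed without IGF1R-dnPI3K replicate 3 (adjusted p = 0.00497) and with only the 2 groups compared in the fit (0.00533). The call for IGF1R-dnPI3K was lost without IGF1R replicate 1, 2 or 3 (-1.16, -1.12 and -1.09, adjusted p of 0.0506, 0.0563 and 0.0668). Nfe2l1, the factor that drives proteasome genes when the particle is inhibited, gave 0.23 between IGF1R-dnPI3K and IGF1R hearts and was not called (limma adjusted p = 0.402).

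Upstream of the proteasome, 23 genes of ubiquitin activation, conjugation, ligation and shuttling were tested, and 0 were called higher and 3 lower in IGF1R-dnPI3K than in IGF1R hearts, with 2 higher and 7 lower at an unadjusted p under 0.05. Of all probe sets tested 7.8% were called lower, and 32.2% had an unadjusted p under 0.05 in either direction, so nothing is read from these counts. The called ones were Mdm2, the ligase of p53 (-0.83 ± 0.17, limma adjusted p = 0.0163), Ube2n, which builds signalling chains (-0.81 ± 0.15, 0.0143), and Ubqln2, a shuttle that carries substrates to the proteasome (-1.14 ± 0.32, 0.0423). Leaving out IGF1R replicate 1, 2 or 3 lost the call of Mdm2 (adjusted p of 0.0538, 0.0526 and 0.0608). That of Ube2n was lost without IGF1R replicate 3 (0.0597), and that of Ubqln2 without any 1 array other than IGF1R-dnPI3K replicates 1 and 2, with -0.73 (0.0775) without IGF1R-dnPI3K replicate 3. Uchl1, a ubiquitin hydrolase, was the 1 gene of the list called between IGF1R-caPI3K and IGF1R-dnPI3K hearts, higher by 0.66 ± 0.12 (limma adjusted p = 0.0315). It read 657, 662 and 620.4 in IGF1R-caPI3K hearts and 445, 366 and 421 in IGF1R-dnPI3K hearts, with no overlap. That call held without IGF1R-dnPI3K replicate 1 or 3 and was lost without any other single array, with adjusted p of 0.0555 to 0.143. Between IGF1R-caPI3K and IGF1R hearts 0 genes of the 3 lists were called by limma. At an unadjusted p under 0.05 there were 2 of the 9 other proteasome genes, 3 of the 23 ubiquitin genes and 1 of the 17 class I genes. Of all probe sets tested, 18.4% had such a p in that comparison.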

How the data were processed

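The table deposited by the authors gives a linear intensity for each of 12488 probe sets on each of 9 arrays. Judging from these values, arrays were brought to the same 2% trimmed mean, near 500. No source used here gives the algorithm or detection calls. Groups came from the sample titles, and replicates were numbered in deposit order. Nothing in the labels says more of how the mice were chosen, so the results refer to these mice. The p-values set each difference against a spread between mice that was estimated over all groups together. Leaving out an IGF1R-dnPI3K array therefore also changes the p-values between IGF1R-caPI3K and IGF1R hearts.

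The 66 control probe sets were left out. The floor was 32.4 (the 20th percentile of all positive intensities). Intensities under it were set to it before log2, and 0.218% of the members' tested values were at or below it. A probe set was tested if 3 or more arrays had it above their 40th percentile, which left 7898, with 51 of the 58 members. A linear model was fitted with limma 3.58.1 (R 4.3.3), with variances moderated along the mean signal, adjusted by Benjamini-Hochberg at 0.05. Arrays allow no interval from counting, and their number limits the precision. Symbols came from the platform annotation, and all 58 members matched RefSeq.

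The members and lists were chosen with earlier results of these data known. Named genes were those called in any comparison, in a comparison with fewer than 5 calls the 5 with the lowest p, and all immunoproteasome and activator genes, each read from its brightest probe set. Psma1, Psma4, Psmb3, Psmb5, Psmb6, Psmb7, Psmd10, Psmd11, Psmd14, Psmg1, Psmg4, Nfe2l1, Irf9, Canx, H2-D1, Gbp2 and Irf1 were partly chosen after their values were seen. Alternatives covered 2 normalizations, 2 treatments of low values, 2 filters, the variance model, the arrays in the fit, possible shared targets, the mouse number series, and each array left out in turn.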

Additional observations from a re-analysis of the deposited data

How the results depend on the processing

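No paired analysis was possible because the labels give the groups no shared replicate numbers, and the block fitted in its place was the series of the mouse number. Over 19 alternatives, 976 values of a gene chosen by the naming rule kept their side of the threshold, 78 lost the call and 20 gained one. Sign turned in 15 values, none of a gene called in either fit. Leaving out each array in turn gave 2 to 11 called members between IGF1R-dnPI3K and IGF1R hearts (5 with all arrays; 11 without IGF1R-dnPI3K replicate 1, 4 without replicate 3, 2 without IGF1R replicate 3), 0 to 3 between IGF1R-caPI3K and IGF1R hearts (3 without IGF1R-dnPI3K replicate 3), and 0 to 4 between IGF1R-caPI3K and IGF1R-dnPI3K hearts (4 without IGF1R-dnPI3K replicate 1). The median log2 difference of the members ran from 0.0101 to 0.121, from 0.00111 to 0.103 and from 0.00145 to 0.0346 in the same order of comparisons. With only the 2 groups compared in the fit, the calls were 2, 5 and 0. The 5 between IGF1R-caPI3K and IGF1R hearts were Psmd4, Psmd3, Psmb10 and Psma4, higher, and the dimmest Psmc3 probe set, lower. With a block for the series of the mouse number, whose meaning the labels do not give, 0 members were called in each comparison; Psme1 was then 1.08 higher in IGF1R-dnPI3K than in IGF1R hearts (adjusted p = 0.0901), and the calls of Sem1, Usp14, Mdm2, Ube2n, Ubqln2, Pdia3 and Uchl1 were lost too (adjusted p of 0.373 to 0.666). That fit rests on 1 IGF1R-dnPI3K mouse, since replicates 2 and 3 are alone in their series. Without a trend in the variance 0 members were called between IGF1R-caPI3K and IGF1R-dnPI3K hearts (Psme1 adjusted p = 0.0581). Scaling to a common median moved the median of all probe sets between IGF1R-dnPI3K and IGF1R hearts to 0.04, against -0.09 as deposited, and that of the members to 0.20, against 0.06, with 7 calls higher and 0 lower. The same scaling turned the members' median between IGF1R-caPI3K and IGF1R-dnPI3K hearts to -0.04, against 0.03. The counts of called members under these alternatives stand without the share of all probe sets called in the same fit. Nothing about the members as a set is read from them.

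Psme1 and Psmd4 kept their call between IGF1R-dnPI3K and IGF1R hearts in 18 of 19 alternatives, Psmb10 in 16, Psmd3 in 14 and Psmb2 in 7. Psme1 kept its call between IGF1R-caPI3K and IGF1R-dnPI3K hearts in 12. The cause was not tested. The number of mice, 3 per group, limits the precision, and 7 of the 58 member probe sets were too dim to test.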

Other observations

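Psmc4, an ATPase of the regulatory particle, was read by 1 probe set that was too dim for the filter. Its deposited signal was 75.0, 56.9 and 72.1 in IGF1R-caPI3K hearts, 104.6, 102.0 and 125.5 in IGF1R-dnPI3K hearts and 28.9, 46.1 and 16.3 in IGF1R hearts. The 3 groups did not overlap. With no filter on low values its log2 difference between IGF1R-dnPI3K and IGF1R hearts was 1.60 ± 0.18 (limma adjusted p = 0.0224), but 2 of the 3 IGF1R values lay below the floor of 32.4, so the size depends on the floor. It was singled out after its values were seen.

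The IGF1R arrays were the lowest for many members through 1 mouse: IGF1R replicate 3 was the lowest of the 9 arrays for 15 of the 51 tested members and the highest for 3, 35.3% in all, against 24.3% of all probe sets tested. IGF1R-dnPI3K replicate 3 was the highest for 14 and the lowest for 13, or 52.9%, against 47.8% of all.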
